A study of Mus musculus with 4 samples.

Results

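The *Gimap* genes encode GTPases of immunity-associated proteins, and all 8 members set for study were found by symbol among the 23337 genes of the count table and in each table of TPM (a level per unit of transcript length). They are *Gimap1*, *Gimap3*, *Gimap4*, *Gimap5*, *Gimap6*, *Gimap7*, *Gimap8* and *Gimap9*. The family was selected on the fold change of *Gimap4* between the groups, which was known to be large and upward, so the values of *Gimap4* are given as a description without a test, and the other 7 members were tested. RNA-seq was performed on sorted medullary thymic epithelial cells (mTECs) of 4-week-old C57BL/6 mice, with 2 libraries from wild-type mice (WT) and 2 from *Sirt6* cKO mice. The cKO mice carried *Sirt6* loxp/loxp and a *Foxn1*-Cre transgene, which acts in thymic epithelial cells, whereas the controls lacked the Cre. The sample labels give the genotypes as wild type and Sirt6-/-, and the libraries with the second label are called cKO libraries here. The cells were sorted as CD45-EpCAM+UEA-1+Ly51-. The methods call the 2 parallel samples per group independent but do not say how many mice each came from. How far the spread between libraries is technical is therefore not known.

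GIMAP proteins share a GTP-binding domain with the plant AIG1 family and most of them sit on intracellular membranes. They are best known from lymphocytes, where several members govern the survival of developing and mature T cells, and loss of *Gimap5* causes lymphopenia in rodents. In the mouse the genes lie side by side on 1 chromosome. In the thymus they are usually discussed as thymocyte genes rather than as genes of the epithelium, which makes the purity of an epithelial sort relevant to every value below.

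Depth was similar in the 4 libraries, from 61102704 to 65907745 counts. *Sirt6*, the targeted gene, was not lower in the cKO libraries. WT 1 and WT 2 held 622 and 755 counts of it, and cKO 1 and cKO 2 held 882 and 835 (log2 fold change 0.37, SE 0.32, edgeR adjusted p = 0.80). A gene-level count does not separate exons inside and outside the floxed part, so the label could not be checked by this gene, and the groups are called by their labels. The study itself reported that *Sirt6* was inactivated, from a western blot of cultured thymic epithelial cells and quantitative PCR in sorted cells. *Ptprc*, which encodes the CD45 used to exclude blood cells in the sort, had between 16820 and 26127 counts in each library. *Epcam* had 49643 and 49078 counts in WT 1 and WT 2, and 60549 and 72374 in cKO 1 and cKO 2. *Aire*, the transcriptional regulator of mature mTECs, had 23001 and 27268 in WT and 33779 and 42559 in cKO. Both genes were higher in both cKO libraries (edgeR adjusted p = 0.54 for each), as were 21.6% of all genes.

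The 8 members occupied chromosome 6 from 48647234 to 48770851 in GRCm38, the assembly of mm10, a stretch of 123.618 kb. Their order was *Gimap8*, *Gimap9*, *Gimap4*, *Gimap6*, *Gimap7*, *Gimap1*, *Gimap5* and *Gimap3*. *Gimap6* and *Gimap3* lie on the minus strand and the other members on the plus strand. *Gimap4* (ENSMUSG00000054435.16) runs from 48684549 to 48692060 on the plus strand, between *Gimap9* (48676129 to 48679114) and *Gimap6* (48701582 to 48708225). Its exons overlapped no exon of another annotated gene, and none of the 50-base words of its longest transcript occurred in a transcript of another gene. *Gimap3* shared 9.06% of the 50-base words of its longest transcript with transcripts of *Gimap5*, and 36.0% of the exon bases of *Gimap1* overlapped another annotated gene, so part of the reads of these members may have been assigned to the other gene. GENCODE M21 also places *Gimap1os*, *Gm28053*, *Gm44226*, *Gm44262* and *4833403J16Rik* within the stretch, and these were not analysed here.

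The bases before the start of *Gimap4* are shown with those of its neighbours on either side, because *Gimap4* differed between the groups while the flanking members did not pass the test. The sequences are from RefSeq on GRCm38.p6 and each is read 5′ to 3′ in the direction of its gene. The start is that of RefSeq, which can differ from the GENCODE positions given above. The *Gimap9* and *Gimap4* windows end at 48676134 and 48684577, inside the GENCODE genes that begin at 48676129 and 48684549. Capitals mark the letters GAGGAAG in either orientation, which hold the GGAA core recognised by ETS transcription factors.
*Gimap9* (chr6:48675885-48676134, plus strand): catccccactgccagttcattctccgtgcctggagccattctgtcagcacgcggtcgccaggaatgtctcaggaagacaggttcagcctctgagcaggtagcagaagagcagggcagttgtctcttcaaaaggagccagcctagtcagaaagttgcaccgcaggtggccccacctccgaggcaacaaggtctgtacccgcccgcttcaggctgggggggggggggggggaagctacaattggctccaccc
*Gimap4* (chr6:48684328-48684577, plus strand): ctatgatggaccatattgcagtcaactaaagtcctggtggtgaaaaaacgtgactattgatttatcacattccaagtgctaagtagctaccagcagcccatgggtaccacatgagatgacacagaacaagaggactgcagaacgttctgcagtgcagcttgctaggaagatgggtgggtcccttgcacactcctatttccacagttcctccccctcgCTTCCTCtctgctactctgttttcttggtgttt
*Gimap6* (chr6:48708245-48708494, minus strand): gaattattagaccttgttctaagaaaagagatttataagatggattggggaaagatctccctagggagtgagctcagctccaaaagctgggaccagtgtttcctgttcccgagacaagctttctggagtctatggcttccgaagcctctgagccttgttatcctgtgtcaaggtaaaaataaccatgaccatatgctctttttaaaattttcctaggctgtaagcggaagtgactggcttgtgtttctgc
On both strands of such windows 4 motifs were searched: GAGGAAG, the NF-κB-type GGG-NN-TTTCC, the interferon-type GAAA-NN-GAAA (N, any base) and the RUNX-type TGTGGTT. All 8 members had a window, with 9 windows in all because *Gimap8* had 2 starts. A single match to a full motif was found, the GAGGAAG beginning 33 bases before the start of *Gimap4*. The shorter GGAA core also occurs, unmarked, in the *Gimap9* and *Gimap6* windows shown, so the match does not set *Gimap4* apart by that core. The same letters occur in 10.6% of the 32851 RefSeq windows searched, against 1.41%, 2.98% and 4.4% for the other three motifs in the order above.

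*Gimap4* is induced in thymocytes around positive selection and is linked to the timing of T cell death. WT 1 and WT 2 held 429 and 378 counts of *Gimap4*, whereas cKO 1 and cKO 2 held 2950 and 2435. In CPM (counts scaled to library size with TMM factors) the values were 6.55 and 5.94 in WT against 48.9 and 38.0 in cKO. Both cKO libraries lay far above both WT libraries, and the 2 libraries of a group lay close together. The mean CPM went from 6.25 ± 0.434 (SD, n = 2) to 43.4 ± 7.72 (SD, n = 2), a ratio of 6.95, with a log2 fold change of 2.80 and an SE of 0.30. This contrast selected the gene, so no test of it is given.

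On the TPM scale the change of *Gimap4* was smaller. Its TPM was 13.0 and 12.6 in the WT libraries and 64.9 and 51.1 in the cKO libraries, a mean of 12.8 ± 0.26 (SD, n = 2) against 58.0 ± 9.72 (SD, n = 2) and a ratio of 4.52. Counts divided by TPM are proportional to the mean length of the transcripts that the quantifier assigned to a gene. Scaled on 709 genes with 1 annotated transcript, the mean transcript length implied for *Gimap4* was 1094 bases in WT 1 and 1050 in WT 2 but 1644 in cKO 1 and 1631 in cKO 2. The assigned transcripts of *Gimap4* were thus 1.53 times longer in the cKO libraries, and the groups did not overlap.

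For the other 7 members the implied length was constant to the third digit, as it would be if each was quantified on 1 transcript. Among 13496 genes with at least 100 counts in every library, 599 (4.44%) had a longest implied length more than 5% above the shortest, and *Gimap4* was the only member among them. Over these 599 genes the ratio of cKO to WT ran from 0.901 at the 5th percentile to 1.17 at the 95th. Only 4 of the 13496 genes, *Gimap4* included, reached the 1.53 of *Gimap4*, and 1 gene changed as much in the other direction. The implied length is computed from the counts on which *Gimap4* was selected, so its place among these genes is a description and not a test. GENCODE M21 annotates 6 transcripts of *Gimap4* of 771, 775, 900, 1076, 1359 and 1804 bases. The longest has 3 exons, while the 5 shorter ones have 4 or 5. The annotation used for quantification is not given in the sources used here and differs from GENCODE M21 in part, since the implied length of *Gimap8* (3660 bases in WT 1) exceeds its longest transcript there (3160 bases). Which transcripts the reads came from was not tested.

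None of the other 7 members was called higher together with *Gimap4*. At an unadjusted edgeR p of 0.05, 0 of them were higher and 1 was lower in the cKO libraries, against 5.27% of all genes higher and 3.32% lower. At an adjusted p of 0.05 edgeR called 0 of the 7, against 0.00539% of all genes, which is 1 gene, and DESeq2 called 0 of the 7, against 1.83% of all genes. The edgeR adjusted p-values of the 7 ran from 0.54 to 0.99. Their log2 fold changes were below 0 for 5 members and above 0 for 2, with a median of -0.34, and the median over all genes tested was -0.005. The groups were apart for 3 members, *Gimap1*, *Gimap3* and *Gimap6*, all lower in the cKO libraries, against 20.3% of all genes apart in that direction, and for 0 members higher, against 21.6%. With 2 libraries per group an exact permutation test of 1 gene cannot go below p = 0.333.

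**Figure D1:**
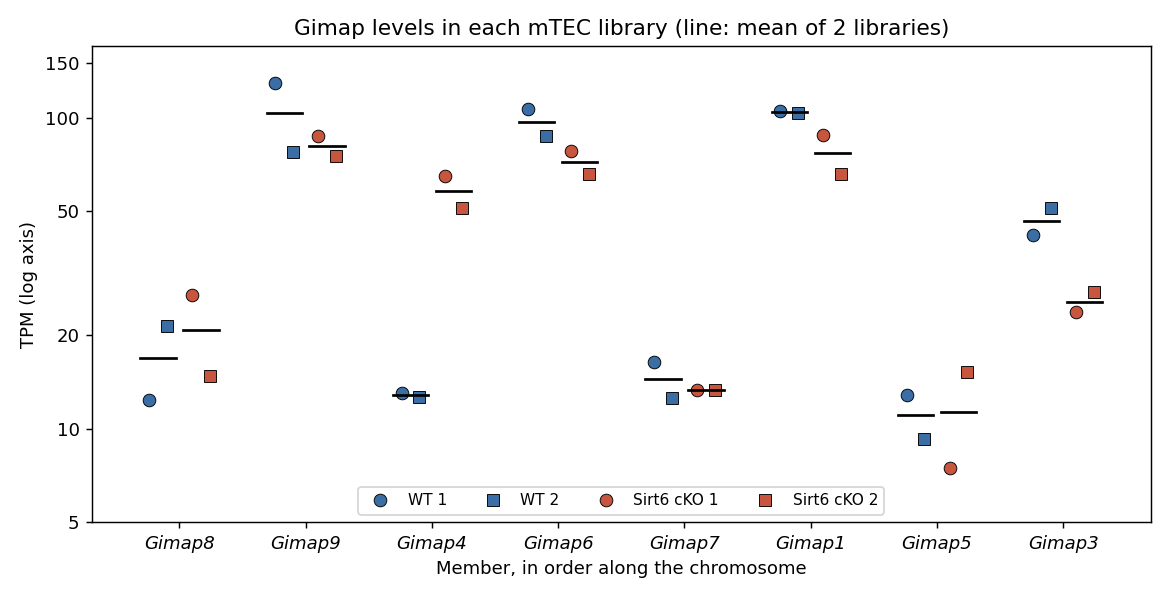
TPM on a log axis (vertical) of the 8 members in order along the chromosome (horizontal), with WT libraries in blue, cKO libraries in red, circles for replicate 1, squares for replicate 2 and a line at the mean of 2 libraries. The Gimap4 points rise from 13.0 and 12.6 in WT to 64.9 and 51.1, while the Gimap3 points lie lower in the cKO libraries and those of Gimap5, Gimap7, Gimap8 and Gimap9 overlap between the groups.

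*Gimap3*, which encodes a protein of intracellular membranes that binds BCL2 family proteins, was the member lower at the unadjusted p. Its counts were 2719 in WT 1, 3140 in WT 2, 1407 in cKO 1 and 1723 in cKO 2. The CPM values were 41.5 and 49.3 in WT against 23.3 and 26.9 in cKO, so the groups did not overlap. WT was 1.81 times as high, but the log2 fold change of -0.86 (SE 0.26) did not pass the adjusted test (edgeR adjusted p = 0.54, DESeq2 adjusted p = 0.11). Without WT 2 the edgeR unadjusted p of *Gimap3* was 0.079, and without cKO 1 it was 0.095, so the call rests on those libraries.

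*Gimap1* is needed for the survival of mature B and T cells. Its counts were 4770 in WT 1, 4432 in WT 2, 3672 in cKO 1 and 2903 in cKO 2, with both cKO libraries below both WT libraries. The log2 fold change was -0.43 (SE 0.24, edgeR adjusted p = 0.69). *Gimap6*, a cytosolic member that binds proteins of the Atg8 family and takes part in autophagy, had 5170 and 4023 WT counts and 3500 and 3117 cKO counts. Its groups were also apart, with a log2 fold change of -0.42 (SE 0.24, edgeR adjusted p = 0.69). Neither difference passed the test against the spread between libraries.

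*Gimap9* counts were 5409 in WT 1 and 3055 in WT 2, against 3339 in cKO 1 and 3051 in cKO 2. WT 1 alone was high, the other 3 libraries were alike, and the log2 fold change was -0.34 (SE 0.32, edgeR adjusted p = 0.82). Without WT 1 it was 0.07. *Gimap5*, a lysosomal member required for the survival of peripheral T cells, had 752 and 512 WT counts and 401 and 866 cKO counts, so that the cKO libraries enclosed the WT libraries. Its cKO libraries differed 2.03-fold between themselves, and the log2 fold change was 0.04 (SE 0.47, edgeR adjusted p = 0.99).

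*Gimap7*, an active GTPase of the family, had 627 and 453 WT counts and 468 and 495 cKO counts. The cKO libraries fell inside the range of the WT libraries, with a log2 fold change of -0.11 (SE 0.37, edgeR adjusted p = 0.96). *Gimap8*, which unlike its relatives has several GTP-binding domains, had 1363 and 2226 WT counts and 2711 and 1583 cKO counts. Its libraries differed 1.68-fold within WT and 1.82-fold within cKO, and the log2 fold change was 0.32 (SE 0.42, edgeR adjusted p = 0.89). Without cKO 1 the log2 fold change of *Gimap8* was -0.17. For these 4 members the groups overlapped, and with SEs between 0.32 and 0.47 on the log2 scale a change of moderate size would not have been detectable.

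The change of *Gimap4* altered the order of the members. By mean TPM in WT the order was *Gimap1* (104 ± 1.14, SD, n = 2), *Gimap9* (103 ± 36.9), *Gimap6* (96.9 ± 13.3), *Gimap3* (46.6 ± 6.60), *Gimap8* (16.9 ± 6.38), *Gimap7* (14.4 ± 2.72), *Gimap4* (12.8 ± 0.26) and *Gimap5* (11.0 ± 2.53). The upper 3 overlapped each other in their libraries, *Gimap3* stood alone, and the neighbours among the lowest 4 overlapped. In *Sirt6* cKO the order was *Gimap9* (81.3 ± 8.28), *Gimap1* (77.0 ± 15.6), *Gimap6* (72.2 ± 8.66), *Gimap4* (58.0 ± 9.72), *Gimap3* (25.6 ± 2.68), *Gimap8* (20.8 ± 8.47), *Gimap7* (13.3 ± 0.0171) and *Gimap5* (11.3 ± 5.50). Here the upper 3 again overlapped, the *Gimap4* libraries lay just below them and well above those of *Gimap3*, *Gimap3* overlapped *Gimap8*, and *Gimap5* overlapped *Gimap7* and *Gimap8*. *Gimap4* moved from rank 6 in both WT libraries to rank 4 in both cKO libraries, below *Gimap1*, *Gimap6* and *Gimap9*, which held the upper 3 ranks in all 4 libraries.

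The family as a whole was not higher. Summed over the 8 members, CPM was 324 and 286 in the WT libraries and 306 and 252 in the cKO libraries, so the groups overlapped. Without *Gimap4* the sums were 318 and 280 in WT against 257 and 214 in cKO, with means of 299 ± 26.6 (SD, n = 2) and 235 ± 30.1 (SD, n = 2) and a ratio of 0.787. Over the summed counts of the family, *Gimap4* held 2.02% and 2.07% in WT and 16.0% and 15.1% in cKO.

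None of the genes around the cluster passed the test. Of the 10 nearest genes listed in the count table, 5 on each side, 0 passed the unadjusted edgeR p of 0.05 in either direction, 0 passed an adjusted p of 0.05 by edgeR or DESeq2, and their log2 fold changes ran from -0.37 for *Tmem176a* to 0.76 for *Doxl2*. *Repin1*, a zinc finger gene 48.2 kb before the cluster, had 3080 and 3653 WT counts and 4016 and 4735 cKO counts (log2 fold change 0.43, SE 0.23, edgeR adjusted p = 0.66). *Tmem176a*, a membrane protein gene 70.1 kb after it, had 18333 and 23859 WT counts and 15528 and 15955 cKO counts (log2 fold change -0.37, SE 0.20, edgeR adjusted p = 0.66). The groups were also apart for *Rarres2*, which encodes chemerin (log2 fold change -0.16). In all, 1 of the 10 was apart as higher and 2 as lower, against 21.6% and 20.3% of all genes, so these counts do not exceed the background. They overlapped for *Gm5111*, *Zfp775*, *AI854703*, *Tmem176b*, *Abp1* (annotated as *Aoc1*), *1600015I10Rik* and *Doxl2*, of which *1600015I10Rik* was at 0 in WT 2 and had no more than 56 counts elsewhere.

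**Figure D2:**
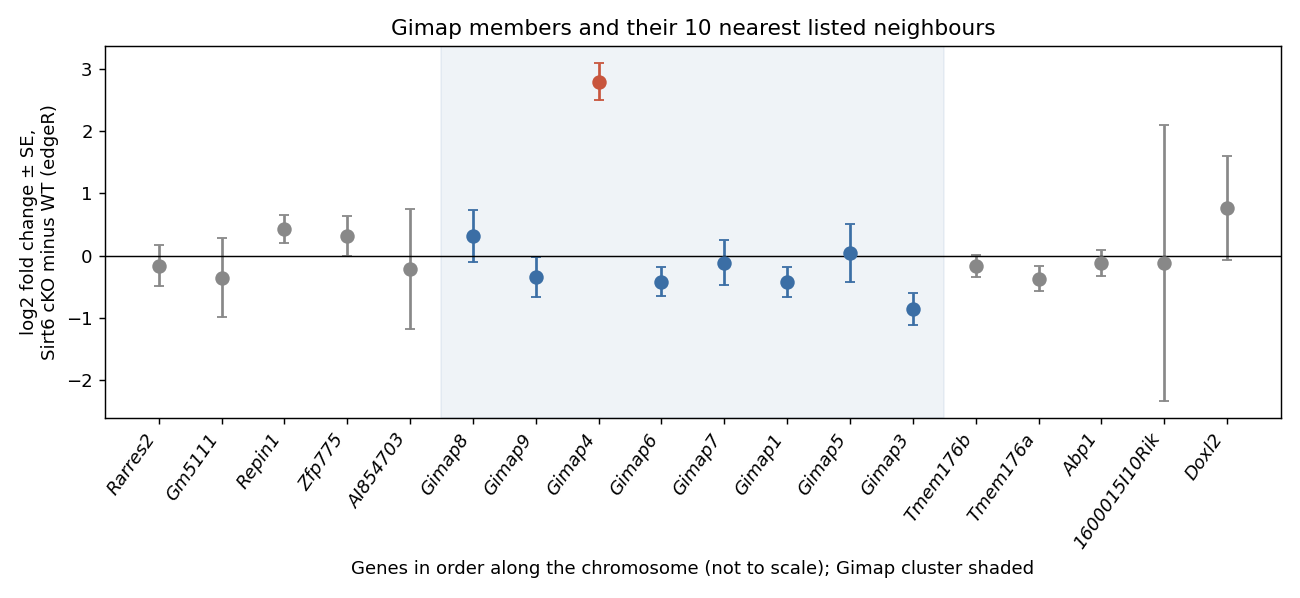
Log2 fold change of cKO libraries over WT from edgeR (vertical, bars show the SE) for the 8 members and the 5 nearest listed genes on each side, in order along the chromosome but not to scale (horizontal); the cluster is shaded. Gimap4 stands at 2.80, whereas the other 7 members lie between -0.86 and 0.32 and the neighbours between -0.37 and 0.76.

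Since the family is known from lymphocytes, its values were set beside the markers of other cell types. Of the 28 markers of thymocytes and T cells, 0 were at 0 in any library. Their summed CPM was 5068 and 3791 in the WT libraries and 4629 and 3214 in the cKO libraries. RNA of these markers was thus present in both groups despite the CD45- gate, and the sums overlapped. At the unadjusted edgeR p of 0.05, 0 of the 28 were higher, against 5.27% of all genes, and 1 was lower, against 3.32% of all genes. This gene was the adhesion receptor gene *Cd2* (log2 fold change -0.56, SE 0.20, edgeR adjusted p = 0.55). In this setting the share lower was close to the background, but up to 3 of the markers passed under other processing of all 4 libraries. The list had a median log2 fold change of -0.21, with 21 markers below 0 and 7 above. The groups were apart for 0 of the markers as higher and 7 as lower, against 21.6% and 20.3% of all genes. *Cd4* had 19217 and 14765 WT counts and 12997 and 10983 cKO counts, and *Cd8a* had 9635 and 6204 against 7341 and 4576. *Lck*, the kinase of the T cell receptor, had 27839 and 16551 against 16065 and 12475. *Cd3e* counts were 3235 and 3108 in WT, against 6949 and 1860 in cKO. Whether the *Gimap* signal came from thymocytes in the sort was not tested, and in bulk samples fewer cells of a type and less RNA per cell cannot be told apart.

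Relative to these markers the groups were also apart for *Gimap4*, the selected gene, higher in cKO, and for *Gimap1* and *Gimap6*, both lower in cKO. The share of all genes apart on this scale was not computed. By CPM it was 21.6% as higher and 20.3% as lower, so these separations are a description and not a result about the members. The CPM of *Gimap4* equalled 0.129% and 0.157% of the summed thymocyte CPM in WT 1 and WT 2, against 1.06% and 1.18% in cKO 1 and cKO 2. For *Gimap6* the share was 1.56% and 1.67% in WT and 1.25% and 1.51% in cKO, and for *Gimap9* it was 1.63% and 1.27% against 1.20% and 1.48%. *Gimap3* reached 0.820% and 1.3% in WT and 0.504% and 0.836% in cKO, which overlap on this scale. *Gimap1* held 1.44% and 1.84% in WT and 1.31% and 1.41% in cKO. In the cKO libraries *Gimap4* came within reach of *Gimap1*, while in WT *Gimap4* lay near *Gimap7* (0.189% and 0.188%).

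**Figure D3:**
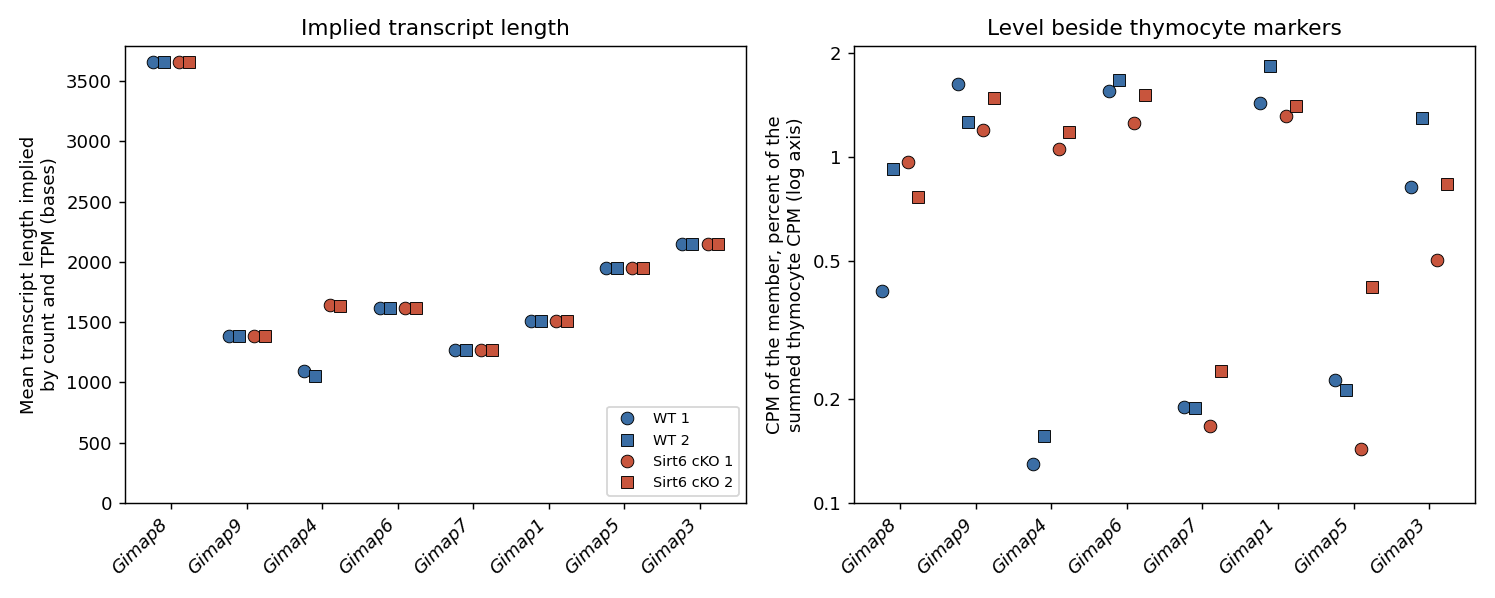
Left: mean transcript length in bases implied by count and TPM (vertical) for each member (horizontal). Right: CPM of each member as a percent of the summed CPM of 28 thymocyte markers, on a log axis. Blue marks WT, red marks cKO libraries, circles replicate 1 and squares replicate 2. Only Gimap4 changes in implied length, from 1094 and 1050 to 1644 and 1631 bases, and its share of the thymocyte sum goes from 0.129% and 0.157% to 1.06% and 1.18%.

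The lists for the other cell types are given at the unadjusted edgeR p of 0.05, which 5.27% of all genes passed as higher and 3.32% as lower. At an adjusted p of 0.05, edgeR called 0 genes of any list, while DESeq2, which called 1.83% of all genes, called 5 macrophage and dendritic cell markers, 3 mTEC markers, *Blk*, *Lum*, *Hba-a2* and *Tgtp2*. Among 15 listed markers of macrophages and dendritic cells, 7 were lower and 0 higher, the lowest being the complement gene *C1qc* (log2 fold change -1.93), and their summed CPM was 5909 and 3436 in WT and 2245 and 2392 in cKO. Among 10 B cell markers 1 was higher, the kinase gene *Blk* (log2 fold change 0.87), and summed CPM was 575 and 363 against 640 and 364. None of the 14 endothelial and none of the 10 NK and innate lymphoid markers passed in either direction, with summed CPM of 323 and 314 against 327 and 324 for endothelial cells, and 171 and 147 against 138 and 101 for NK and innate lymphoid cells. One of 10 fibroblast and pericyte markers was lower, *Lum* (log2 fold change -1.14), with summed CPM of 1308 and 1429 against 1301 and 1396. One of 5 tested erythroid markers was lower, *Hba-a2* (log2 fold change -1.56), with summed CPM of 75.0 and 89.6 against 55.8 and 70.8. One B cell marker and 1 of the 6 erythroid markers were at 0 in at least 1 library. The part of these cells in the *Gimap4* difference was not tested.

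Of the 13 mTEC markers, 4 passed the unadjusted edgeR p of 0.05 as higher and 1 as lower, against 5.27% and 3.32% of all genes, and 0 passed the adjusted p of edgeR. *Cd80*, a costimulatory ligand of mature mTECs, had the highest fold change among them (log2 fold change 0.94) and the chemokine gene *Ccl21a* the lowest (-2.37). The summed mTEC markers were at 12589 and 13734 CPM in WT and 13282 and 13268 in cKO, which overlap. *H2-Aa* alone held 7527 and 7123 CPM of this in WT and 8228 and 7408 in cKO, so the sum mostly follows that gene. The list also holds *Krt8*, whose protein the study stained to mark the cortex, at 1858 and 2585 CPM in WT and 1698 and 1831 in cKO. The sum is therefore not a measure of mTECs alone. The groups were apart for 6 of the 13 as higher and 2 as lower, against 21.6% and 20.3% of all genes. Of 8 markers of cortical epithelium 2 passed the unadjusted p as higher and 0 the adjusted p of edgeR or DESeq2, led by the endocytic receptor gene *Ly75* (log2 fold change 1.14), with summed CPM of 1702 and 1566 against 1683 and 1362.

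**Figure D4:**
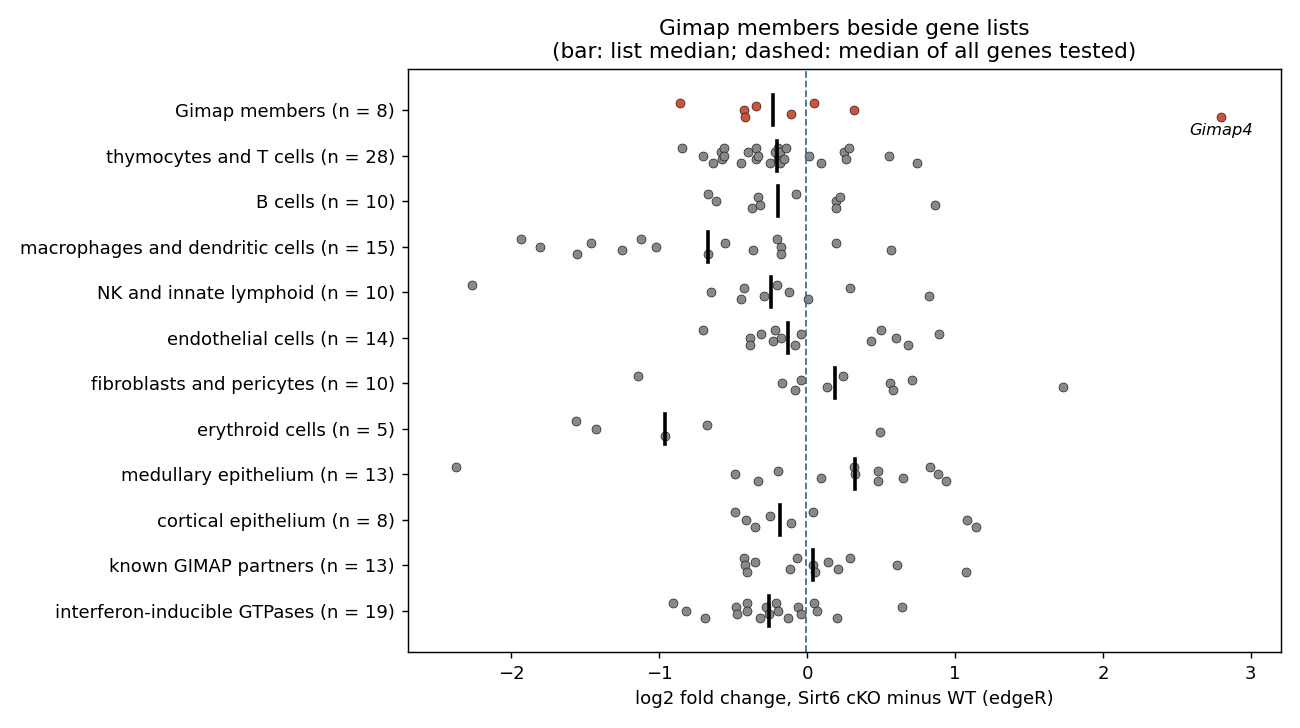
Log2 fold change of cKO libraries over WT (horizontal) of the 8 Gimap members, 9 lists of cell markers and 2 lists of related genes (vertical); each point is a gene, the bar is the list median and the dashed line the median of all genes tested, -0.005. Gimap4 at 2.80 lies above every gene of the lists, and the other 7 members lie within the range of the thymocyte markers or close to it, from -0.86 to 0.32.

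GIMAP proteins are known to bind or act through BCL2 family proteins, Atg8 family proteins and the kinase GSK3B, and of 13 such genes 1 was higher and 0 lower at the unadjusted edgeR p, against 5.27% and 3.32% of all genes, which for so few genes is no more than a count near the background. This was *Gabarapl1*, an Atg8 gene of autophagosome formation, with 2489 and 2617 counts in WT and 3777 and 3735 in cKO (log2 fold change 0.61, SE 0.22, edgeR adjusted p = 0.55). The median of the 13 was 0.04, and the groups were apart for 4 of them as higher and 2 as lower, against 21.6% and 20.3% of all genes. Among 19 interferon-inducible GTPases of the IRG, GBP and Mx families, another group of immune GTPases, 0 were higher and 1 was lower at the unadjusted p, again near the 5.27% and 3.32% of all genes. The lower one was *Tgtp2*, with 14351 and 10018 counts in WT and 6209 and 6303 in cKO (log2 fold change -0.91, SE 0.22, edgeR adjusted p = 0.54, DESeq2 adjusted p = 0.036). The median of the 19 was -0.26, with 15 below 0 and 4 above. The groups were apart for 2 of the 19 as higher and 7 as lower, beside the same shares of all genes.

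By root mean square distance between centred log2 CPM profiles over the 4 libraries, the genes closest to *Gimap4* were *5430427M07Rik* (0.129), *Nps* (0.191), *Eid3* (0.206), *2700023E23Rik* (0.210) and *Aoc3* (0.211). All 5 were near the limit of detection. *5430427M07Rik*, *Nps* and *2700023E23Rik* had 0 counts in both WT libraries and between 11 and 19 in the cKO libraries. *Eid3* had 10 and 9 WT counts and 72 and 47 cKO counts, and *Aoc3*, a vascular amine oxidase gene, had 9 and 5 against 54 and 57. No member of the family was among the close genes, the nearest being *Gimap8* at a distance of 1.29.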

How the data were processed

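mTECs were measured by RNA-seq in 4 libraries, 2 per group, grouped by the genotype in the sample labels. After trimming, the authors mapped reads on mm10 (HISAT2 2.1.0) and estimated gene levels with StringTie 1.3.3, per the methods and the submitters' processing notes. They deposited a table of whole-number counts per gene without normalization and a table of TPM values per library, from which a line holding the column total was left out here. The annotation and strand setting are not given in the sources used here.

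Counts were tested with edgeR 4.0.16 in R 4.3.3 (TMM factors from 0.966 to 1.04, filterByExpr at 10 counts and 15 in total, glmQLFit and glmQLFTest) over 18547 genes, all 8 members included, and adjusted by the Benjamini-Hochberg method at 0.05. The biological coefficient of variation was 0.557. DESeq2 1.42.0, the study's tool, limma 3.58.1 on log2(TPM + 1) and log2(TPM + 0.1), other normalizations, filters and each library left out were alternatives. SEs come from the quasi-likelihood F statistic. CPM used the TMM factors and log2 profiles a prior count of 2. The procedure was tested on simulated data. Chi-square per gene was 166 or more between any 2 libraries, so none was a repeat of another.

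The members and lists were chosen with earlier results of these data known. Named genes were the members, *Sirt6*, the 5 listed genes on each side of the cluster, the called list members with the highest and lowest fold change, *Cd3e*, *Cd4*, *Cd8a*, *Lck* and *Ptprc*, and the 5 genes with the profile closest to *Gimap4*. *Epcam* and *Aire* were named beside them as a check of the label, and *Rarres2*, *Repin1* and *Tmem176a* belong to the flanking genes. Implied transcript length was count divided by TPM, scaled on single-transcript genes with at least 500 counts. It deviated from the annotated length by a median of 1.32%. Positions and 50-base words came from GENCODE M21, promoter windows from RefSeq, with 250 bases before each start. Python 3.11.15, pandas 2.3.3 and matplotlib 3.10.9 were used.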

Additional observations from a re-analysis of the deposited data

How the results depend on the processing

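With 2 libraries per group, 12 alternatives were run. Under each of them edgeR, DESeq2 or limma called 0 of the 7 tested members at an adjusted p of 0.05. The 1 member lower at the unadjusted p, *Gimap3*, was called under the 8 alternatives with all libraries, and the count ran from 0 to 1 when a library was left out, with 0 without WT 2 or cKO 1. The lone library of a group is then assumed to vary like the other group. *Gimap3* had log2 fold changes from -1.0 to -0.73 with a library left out and adjusted p-values from 0.11 to 0.9996 over all alternatives. The log2 fold change of *Gimap4* was 2.16 on log2(TPM + 0.1) and 2.08 on log2(TPM + 1), where longer assigned transcripts lower TPM, and from 2.61 to 2.95 with a library left out.

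*Gimap5* changed sign under upper quartile normalization (-0.026), library size alone (-0.040), log2(TPM + 0.1) (-0.030) and log2(TPM + 1) (-0.023). With the replicate number as a block it was -0.021. The samples share only a number (correlation of deviations -0.05), and the block left the count of called members at 1. With a library left out, *Gimap5* ran from -0.57 to 0.47, *Gimap7* from -0.31 to 0.10, *Gimap8* from -0.17 to 0.74 and *Gimap9* from -0.68 to 0.075, so their direction depended on the library and the cause was not tested. The thymocyte median ran from -0.59 (without cKO 1) to -0.0080 (without WT 1), and the summed *Gimap* CPM from -0.27 to -0.014. Thymocyte markers passing the unadjusted p in either direction numbered 2 under library size alone and under upper quartile normalization. On log2(TPM + 0.1) and on log2(TPM + 1) they numbered 3 with limma, against 1 in the main setting.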
